A study of Rattus norvegicus with 12 samples.

Results

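Heme and iron handling was followed through 9 genes, Hmox1, Blvrb, Ftl1, Fth1, Slc40a1, Tf, Tfrc, Hpx and Alas1, chosen by name from the 32883 genes counted in each library of a rat liver atlas. All 9 were found in the gene list and all 9 passed the filter on low counts in every strain fit. The atlas held 12 samples from healthy male rats. Total liver homogenate (TLH), the whole dissociated organ, was profiled by single-cell RNA sequencing in 2 Dark Agouti (DA) and 2 Lewis (LEW) rats. An immune-enriched preparation, in which the study washed the cells further, depleted red cells and spun parenchymal cells out, was profiled in 1 rat of each strain. Nuclei extracted from liver were sequenced from 2 DA and 2 LEW rats, and 2 Wistar liver sections were measured on Visium slides, where each spot covers several cells. The protocols gave the TLH rats as 8 to 10 weeks old while the TLH files were named for 10 weeks in DA and 13 weeks in LEW and the study's methods gave older ages with the strains matched for age, so the sources differ on age. The study describes the nuclei as coming from further rats, although TLH and nuclei files of DA carried the same animal numbers.

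Heme is made in mitochondria by a chain of enzymes that opens with an aminolevulinate synthase, Alas1 in most tissues and Alas2 in red cell precursors. Macrophages that engulf old red cells, among them the Kupffer cells of the liver, open the heme ring with heme oxygenase 1 (Hmox1), store the freed iron in ferritin (Ftl1 and Fth1) and release it through ferroportin (Slc40a1), which hepcidin (Hamp) from hepatocytes removes from the cell surface. Hepatocytes secrete transferrin (Tf), which carries iron in plasma, and hemopexin (Hpx), which binds free heme, while cells take up iron-loaded transferrin through its receptor (Tfrc).

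Upstream sequence was at hand for 6 of the 9 members, all but Hmox1, Ftl1 and Fth1. It is shown for 3 of them, the iron exporter Slc40a1, whose level followed the Kupffer class below, and the plasma carriers Tf and Hpx, whose levels followed the hepatocyte class. Each line is the 250 bases before the start that the RefSeq promoter table gives the gene, 5′ to 3′ on the gene's strand, from RefSeq on assembly GRCr8, at chr9:55543461-55543710 for Slc40a1, chr8:112695377-112695626 for Tf and chr1:169352156-169352405 for Hpx, all on the minus strand. The Tf and Hpx windows abut the end of the gene's RefSeq span, whereas the Slc40a1 window lies inside its span (chr9:55525457-55633463), so its start is not the outermost of that gene. Capitals mark matches to TATAAA on the gene's strand, and to AGGTCAAAG or TGACNNNGC on either strand.
Slc40a1: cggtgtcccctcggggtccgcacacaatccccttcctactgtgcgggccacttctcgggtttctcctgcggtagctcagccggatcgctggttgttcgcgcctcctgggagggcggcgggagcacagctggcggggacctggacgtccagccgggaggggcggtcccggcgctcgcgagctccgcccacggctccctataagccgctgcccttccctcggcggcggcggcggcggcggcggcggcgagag
Tf: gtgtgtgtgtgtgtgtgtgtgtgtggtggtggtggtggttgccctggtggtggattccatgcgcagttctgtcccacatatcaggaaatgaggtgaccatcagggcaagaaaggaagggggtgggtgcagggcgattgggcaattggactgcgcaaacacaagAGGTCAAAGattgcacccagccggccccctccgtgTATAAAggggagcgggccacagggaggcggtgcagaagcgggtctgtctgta
Hpx: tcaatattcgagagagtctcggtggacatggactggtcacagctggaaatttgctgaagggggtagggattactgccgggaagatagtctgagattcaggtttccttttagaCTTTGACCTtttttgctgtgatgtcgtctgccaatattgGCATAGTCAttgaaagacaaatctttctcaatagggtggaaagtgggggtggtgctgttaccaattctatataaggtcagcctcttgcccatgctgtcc
The Slc40a1 window held 74.0% G and C and 33 CpG dinucleotides, against 58.4% and 8 for Tf and 45.6% and 4 for Hpx. The median over 33469 windows of all genes was 51.2% G and C. AGGTCAAAG, a core letter string of nuclear receptor sites, chosen after the windows were read, began 87 bases before the start in Tf and lay on the opposite strand in Hpx, from 138 bases before the start. It was found in 2 of the 6 member windows and in 0.418% of all windows. TGACNNNGC, the core of the antioxidant response element, lay on the opposite strand of Hpx from 99 bases before the start, in 1 of 6 member windows and in 10.1% of all. TATAAA began 52 bases before the start of Tf, in 1 of 6 member windows and in 8.06% of all. A search for the iron-responsive element in the first 50 transcribed bases found it in 0 of the 6 and in 1.57% of all genes. The rest of each transcript, its 3′ end included, and the ferritin genes were not searched. The search therefore cannot show that a member lacks the element. The matches are letters and were not tested as binding sites.

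The TLH libraries held 61441846 to 92484173 UMIs (unique molecules counted), the nuclei libraries 8039397 to 15186970, the immune-enriched libraries 48255870 and 60005133 and the sections 34449562 and 34827603. Cells were clustered without the members, and clusters were named from fixed marker genes. Kupffer-like cells numbered 338 to 632 per rat in TLH, 60 to 91 in nuclei and 109 and 143 in the immune-enriched DA and LEW libraries. The 2 Kupffer-like clusters of TLH held 11 and 10 of the 13 Kupffer markers among their leading genes. Erythroid-like cells, led by Hba-a2, Hbb, Ahsp and Bpgm, formed a class in the immune-enriched libraries, with 110 cells in DA and 223 in LEW. Levels below are UMIs of the gene per 1000000 UMIs of the class in 1 library (CPM), so each value is 1 rat. Free hepatocyte RNA was abundant in TLH droplets. An upper estimate, which takes every UMI of 5 hepatocyte genes in other classes as free RNA, put it at 54.8% to 68.9% of UMIs in TLH Kupffer-like cells, 80.4% to 89.8% in TLH endothelial-like cells, 24.9% to 36.2% in the same 2 classes of nuclei and 5.74% to 16.8% in the immune-enriched ones. Fewer molecules of a gene per cell and fewer expressing cells within a class cannot be told apart in these sums.

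Of the 9 members, 5 were higher in Kupffer-like than in hepatocyte-like cells in every TLH rat, with no overlap between the 4 values of each class, namely Hmox1, Blvrb, Ftl1, Fth1 and Slc40a1. Of all genes of at least 10 CPM in either class, 35.5% met the same condition. The 5 are the genes of heme breakdown, iron storage and iron export. Tf, Hpx, Tfrc and Alas1 were highest in hepatocyte-like cells by the mean over the TLH rats. In nuclei the condition was met by 2 members, Hmox1 and Slc40a1, against 25.3% of all genes. Endothelial-like cells exceeded hepatocyte-like cells in this way for 2 members in TLH, Blvrb and Slc40a1 (28.4% of all genes), and for 1 in nuclei, Slc40a1 (27.1%). Classes were cut from the same cells, so these are descriptions and were not tested.

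**Figure D1:**
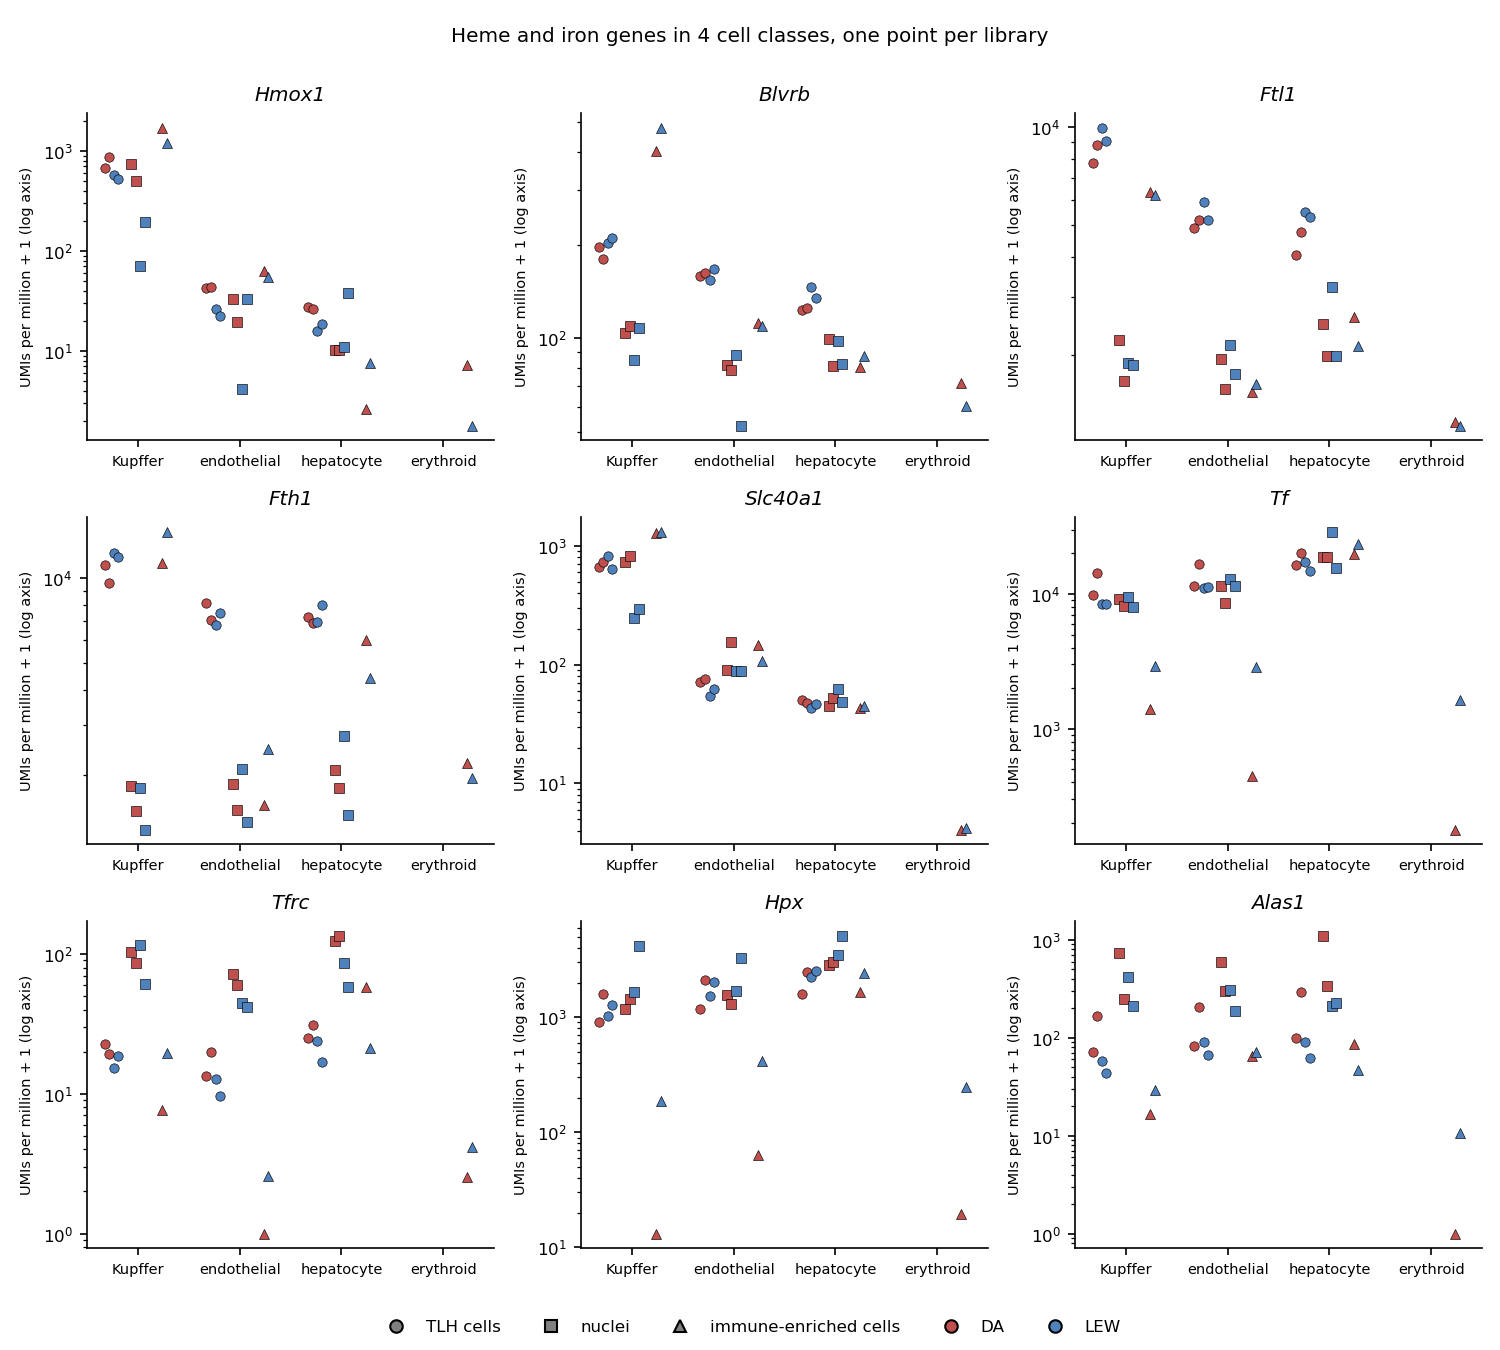
Level of each of the 9 members in 4 classes, on a log axis of CPM with 1 added; each point is 1 library, circles are TLH, squares are nuclei and triangles are immune-enriched, red is DA and blue is LEW. Hmox1 and Slc40a1 stand highest in Kupffer-like cells on all 3 platforms, and Tf and Hpx in hepatocyte-like cells.

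Hmox1, the enzyme that splits heme into biliverdin, iron and carbon monoxide, had the widest gap between Kupffer-like and hepatocyte-like cells of the 9 members in TLH. Its Kupffer-like level was 681.9 and 871.1 CPM in the DA rats and 580.5 and 527.5 CPM in the LEW rats (mean 665 ± 151, SD, n = 4), 26.0- to 39.4-fold above the hepatocyte-like level of the same rat. Mesenchymal-like cells came next at a mean of 122 CPM, below every Kupffer-like value and above every other class, and in the remaining places (35.0 CPM in T-like to 18.2 CPM in NK-like cells) neighbouring classes overlapped. With the estimated free RNA taken off, the TLH Kupffer-like values were 2046 and 2583 CPM in DA and 1245 and 1148 CPM in LEW. Immune-enriched Kupffer-like cells held 1701 CPM in DA and 1213 CPM in LEW, with 1.64 and 6.62 CPM in hepatocyte-like cells. The mesenchymal-like class of those libraries held 336 and 407 CPM of Hmox1, and also held Kupffer markers at 13974 and 29648 CPM against 46891 and 72041 CPM in the Kupffer-like class. In nuclei the Kupffer-like level was 748.5 and 504.6 CPM in DA and 69.1 and 195.2 CPM in LEW, 5.31- to 81.3-fold above hepatocyte-like nuclei, on 102, 107, 23 and 62 UMIs.

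Blvrb, a biliverdin and flavin reductase that acts downstream of Hmox1, was spread far more evenly. It ranged from 179 to 210 CPM in Kupffer-like, 154 to 166 CPM in endothelial-like and 122 to 145 CPM in hepatocyte-like cells of TLH, and these 3 ranges did not overlap. Mesenchymal-like cells, at 146 to 183 CPM, overlapped the first pair, and NK-like cells, at 68.2 to 161 CPM, the second. In the immune-enriched libraries, where less hepatocyte RNA was free, the order was steeper. There Kupffer-like cells held 402 CPM in DA and 476 CPM in LEW, endothelial-like cells 111 and 108 CPM, and hepatocyte-like cells 79.7 and 87.0 CPM.

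Slc40a1, the only known iron exporter of animal cells, shared the first 2 places of its class order in TLH with Hmox1. It was listed on 2 rows of the gene list, and the row ENSRNOG00000003872 is given. Its TLH Kupffer-like level was 666.5 and 724.8 CPM in DA and 824.4 and 640.4 CPM in LEW (mean 714 ± 81.6, SD, n = 4), 13.4- to 19.5-fold above hepatocyte-like cells. Mesenchymal-like cells were again next, at a mean of 199 CPM, with no overlap on either side and with Kupffer markers at 1872 to 6241 CPM, and endothelial-like cells followed at 53.6 to 74.7 CPM. In nuclei Kupffer-like cells held 726.5 and 825.3 CPM in DA and 246.4 and 289.7 CPM in LEW, and endothelial-like nuclei held 86.4 to 152.7 CPM against 44.0 to 61.5 CPM in hepatocyte-like nuclei. Immune-enriched Kupffer-like cells held 1273 CPM in DA and 1308 CPM in LEW, hepatocyte-like cells 41.9 and 43.9 CPM. Kupffer markers were at 1532 to 3023 CPM in endothelial-like and 137 to 206 CPM in hepatocyte-like nuclei. In TLH they were at 910 to 1278 and 384 to 585 CPM in these classes. Their part in the endothelial-like Slc40a1 level was not tested.

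Within TLH, 2 clusters made up the Kupffer-like class, and Hmox1 and Slc40a1 were unevenly divided between them in every rat. Hmox1 ranged from 663 to 1157 CPM in the first cluster and from 142 to 392 CPM in the second. Slc40a1 ranged from 755 to 1034 CPM against 329 to 473 CPM. Albumin (Alb), a hepatocyte gene, moved the other way, with 9022 to 16231 CPM in the first cluster and 18783 to 25660 CPM in the second, and its part in the difference was not tested.

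The ferritin genes were abundant in every class, higher in Kupffer-like than in hepatocyte-like cells of TLH and lower in those of nuclei. The row named Ftl1, the light chain, held 7764 to 9966 CPM in TLH Kupffer-like cells (mean 8909 ± 905, SD, n = 4), 1.71- to 1.92-fold above hepatocyte-like cells. Fth1, the heavy chain with the ferroxidase site, held 9541 to 12266 CPM, 1.38- to 1.76-fold above. In the immune-enriched libraries the distance from endothelial-like cells was larger. Ftl1 was 6337 CPM in DA and 6178 CPM in LEW Kupffer-like cells against 1531 and 1628 CPM in endothelial-like cells, and Fth1 was 11251 and 14521 CPM against 1567 and 2480 CPM. Plasmacytoid dendritic cell-like cells held 15642 CPM of Fth1 in DA, above Kupffer-like cells, and 11110 CPM in LEW, below them. In nuclei the Kupffer-like level was 89.0% and 83.6% of the hepatocyte-like level in DA and 58.4% and 93.7% in LEW for Ftl1. For Fth1 it was 87.9% and 83.4% in DA and 65.4% and 88.9% in LEW.

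The identity of the ferritin light chain row is uncertain. The row named Ftl1 (ENSRNOG00000031506) lies beside Cd52 in the gene list, whereas RefSeq places Ftl1 between Gys1 and Bax, and a further light chain row, LOC100360087 (ENSRNOG00000020843), lies where RefSeq has Ftl1. Reads shared between such copies may be split between rows. LOC100360087 held 682 and 88.1 CPM in the hepatocyte-like cells of DA rats and 246 and 578 CPM in those of LEW rats, a wider ratio between the rats of 1 strain than any member showed in these cells.

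Tf and Hpx, the secreted carriers, were highest in hepatocyte-like cells, and their levels elsewhere are given beside Alb, since the part of free RNA in them was not tested. Hepatocyte-like cells held 14910 to 20327 CPM of Tf and 1597 to 2532 CPM of Hpx in TLH. Kupffer-like cells of TLH still held 49.0% to 70.3% of the hepatocyte-like Tf level and 45.9% to 63.9% of the Hpx level, beside 38.5% to 63.8% of the Alb level. In the immune-enriched libraries these shares were 7.06% in DA and 12.3% in LEW for Tf, 0.74% and 7.77% for Hpx, and 0.944% and 6.22% for Alb. The shares of all 3 genes were lower there than in TLH, and the Tf share lay above the Alb share in both immune-enriched libraries.

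Tfrc, which brings in iron-loaded transferrin, was low everywhere and highest on average in hepatocyte-like cells. In TLH hepatocyte-like cells it was 23.9 and 29.99 CPM in DA and 23.0 and 16.0 CPM in LEW, overlapping the 14.3 to 21.7 CPM of Kupffer-like cells. Nuclei gave more, with 122.7 and 133.8 CPM in DA and 84.8 and 57.5 CPM in LEW hepatocyte-like nuclei and 60 to 114 CPM in Kupffer-like nuclei. Alas1, the rate-limiting enzyme of hepatic heme synthesis, differed widely between rats. Its hepatocyte-like level was 98.6 and 289.8 CPM in DA and 89.1 and 61.8 CPM in LEW rats of TLH, and 1098, 340, 213 and 226 CPM in the 2 DA and 2 LEW nuclei libraries. In Kupffer-like nuclei of the first LEW rat it was 418 CPM, above the hepatocyte-like level. In the immune-enriched DA and LEW libraries it was 85.6 and 45.5 CPM in hepatocyte-like and 64.1 and 70.1 CPM in endothelial-like cells. Mesenchymal-like cells held 33.6 and 48.4 CPM, and plasmacytoid dendritic cell-like cells 36.2 and 0 CPM. Monocyte/macrophage/DC-like cells held 20.6 and 50.9 CPM and Kupffer-like cells 15.5 and 28.2 CPM. The order of these classes differed between the libraries.

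Erythroid-like cells, from libraries depleted of red cells, were high in part of the heme synthesis list and low in the uptake and export members. Of the 11 heme synthesis genes with at least 10 CPM in either class, 3 (Alas2, Fech and Urod) were above hepatocyte-like cells without overlap, as were 2.42% of all genes. Alas2, the red cell form of aminolevulinate synthase, reached 1261 CPM in DA and 1084 CPM in LEW, while Alas1 had 0 of 648474 UMIs in DA, which allows up to 4.63 CPM (3 counts of the total, counting error only), and 12 UMIs in LEW (9.55 CPM). Fech, which inserts iron into the ring, held 129 to 170 CPM. Tfrc, abundant on early red cell precursors, had 1 and 4 UMIs (1.54 and 3.18 CPM), Slc40a1 had 2 and 4 UMIs and Hmox1 had 4 and 1 UMIs. Ftl1 at 1243 and 1210 CPM and Fth1 at 2207 and 1955 CPM lay below their Kupffer-like levels in both libraries. Tf in this class was 0.894% and 6.87% of its hepatocyte-like level, beside 1.14% and 9.15% for Alb.

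Genes most like Hmox1, Slc40a1 and Tfrc were sought over 28 points, 7 TLH classes in 4 rats, by the Pearson correlation of log2(CPM + 10) among 2741 genes of at least 50 CPM. Hmox1 was most like Vsig4 (r = 0.958), Zfat (0.945), Siglec1 (0.942), Slc40a1 (0.937) and Cd5l (0.936). Slc40a1 was most like Clec4f (0.964), C1qa (0.954), Siglec1 (0.951), the hemoglobin-haptoglobin receptor Cd163 (0.951) and Hpgds (0.946). Tfrc had weaker likenesses, among them Marc1 (0.782), Ust5r (0.767), Hgfac (0.764) and Rpn2 (0.764). The points share libraries, depth and free RNA, so the values are descriptions.

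The strain comparison asked whether the members differed between DA and LEW livers, each class fitted alone with the rat as the unit. In nuclei, Hmox1 and Slc40a1 were higher in DA than in LEW Kupffer-like cells. Hmox1 was 2.16 higher on the log2 scale (SE 0.45, approximate 95% interval 1.27 to 3.05, edgeR quasi-likelihood adjusted p = 0.0426, n = 2 rats per strain). Slc40a1 was 1.46 higher (SE 0.32, interval 0.84 to 2.07, adjusted p = 0.0388 in edgeR). In each case both DA values given above lay above both LEW values. The median depth of these nuclei was 1422 and 1308 UMIs in DA and 2728 and 1571 UMIs in LEW, and its part in the differences was not tested. Of all genes tested in this class, 1.39% passed the threshold in either direction and 0.779% passed it with DA higher, against 2 of the 9 members. The members were chosen with earlier results of these data known, and the study had named Hmox1 among its DA-enriched myeloid genes. The share over all genes is therefore a description and no independent test of the list. With n = 2 per strain the p-values measure the spread between these rats alone. The Hmox1 call was lost without the first DA rat (adjusted p = 0.0912) and the Slc40a1 call without the first LEW rat (0.0926), and both were lost with the estimated free RNA taken off (2.12 for Hmox1 and 1.46 for Slc40a1) or under stricter cell limits (2.38 and 1.18). Slc40a1 also missed the threshold with the top Scrublet scores left out (adjusted p = 0.0550) and with all genes in the clustering (0.0754). Hpx went the other way, higher in LEW, and passed without the filter on low counts (-1.31, edgeR adjusted p = 0.00375). Its Kupffer-like level was 1182 and 1429 CPM in DA and 1662 and 4191 CPM in LEW. The second LEW library was also the highest for Hpx in hepatocyte-like nuclei, at 5086 CPM. The Hpx difference was -1.80 without the first LEW rat, and the part of free hepatocyte RNA in it was not tested.

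In TLH, 0 of the 9 members passed the threshold in Kupffer-like, hepatocyte-like or endothelial-like cells, where 6.43%, 4.04% and 3.76% of all genes did. At an unadjusted p under 0.05, edgeR gave Hmox1 in all 3 classes, Tf in Kupffer-like and endothelial-like cells and Alas1 in Kupffer-like cells, 3, 1 and 2 of the 9 members against 21.5%, 21% and 18.3% of all genes. The Hmox1 values of DA lay above those of LEW without overlap in each class. The difference was 0.52 on the log2 scale in Kupffer-like cells (SE 0.17, interval 0.19 to 0.84, edgeR adjusted p = 0.0836). In hepatocyte-like cells, at 26.2 and 25.5 CPM in DA and 14.7 and 17.7 CPM in LEW, it was 0.65 (SE 0.17, edgeR adjusted p = 0.0741). In endothelial-like cells, at 41.5 and 42.2 CPM in DA and 25.2 and 21.5 CPM in LEW, it was 0.89 (SE 0.26, edgeR adjusted p = 0.0647). These 3 differences missed the threshold, and they come from the same 4 rats. The mitochondrial limit for cells was 30% and 20% in the DA rats and 40% in the LEW rats, and its part in the TLH differences was not tested. Kupffer markers were at 384 to 585 CPM in hepatocyte-like and 910 to 1278 CPM in endothelial-like cells, and their part in the Hmox1 values was not tested. In immune-enriched hepatocyte-like cells Hmox1 was lower in DA, at 1.64 against 6.62 CPM. DESeq2 called 1 member in Kupffer-like cells, Alas1 (1.29, adjusted p = 0.0425), and 0 in the other 2 classes. In edgeR that Alas1 difference passed under stricter cell limits (adjusted p = 0.0488). It was 1.51 without the first LEW rat, which leaves 1 rat in that strain. At the study's 1500-UMI limit for LEW, Hmox1 passed in Kupffer-like (0.84, edgeR adjusted p = 0.0142) and hepatocyte-like cells (0.73, edgeR adjusted p = 0.0446), and with the top Scrublet scores left out it passed in Kupffer-like cells (edgeR adjusted p = 0.0401). Under stricter cell limits it passed in hepatocyte-like cells (0.89, edgeR adjusted p = 0.0457). Tf, Hpx and Alas1 were highest on average in hepatocyte-like cells. Estimated free RNA was 68.9% and 68.3% in DA and 54.8% and 56.1% in LEW Kupffer-like cells. In endothelial-like cells it was 89.8% and 87.5% in DA and 80.4% and 85.2% in LEW. Its part in the Tf, Hpx and Alas1 differences of these classes, above and below, was not tested. The first DA rat decided part of the counts, since without it edgeR called 4 members in Kupffer-like cells (Hmox1, Tf, Hpx and Alas1), 1 in hepatocyte-like cells (Alas1) and 3 in endothelial-like cells (Hmox1, Tf and Alas1), all higher in DA, where 9.81%, 2.96% and 7.0% of all genes passed.

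Kupffer markers differed between the strains in TLH, and their summed level was lower in DA there and higher in DA in nuclei. Of 13 marker genes listed, 12 were found and none was at 0. Their summed level in Kupffer-like cells of TLH was 16586 and 19120 CPM in DA and 28835 and 30704 CPM in LEW. By edgeR 8 of the 12 were called LEW higher (median log2 of -0.69). The class total used for CPM includes free RNA. Estimated free RNA in these TLH cells was 68.9% and 68.3% in DA and 54.8% and 56.1% in LEW. Its part in the lower marker level of DA, and in the Slc40a1 levels of TLH in CPM, was not tested. In nuclei the sum was 8146 and 8333 CPM in DA and 4863 and 4855 CPM in LEW. There edgeR called 0 of the 12 (median 0.76), and 7 had an unadjusted p under 0.05 in edgeR, against 14.7% of all genes. Marco was the exception, lower in DA in TLH (-1.20) and at -0.41 in nuclei (edgeR adjusted p = 0.674). Relative to these markers, Hmox1 in TLH was 41.1 and 45.6 UMIs per 1000 marker UMIs in DA and 20.1 and 17.2 in LEW. In nuclei it was 91.9 and 60.6 in DA against 14.2 and 40.2 in LEW, and in the immune-enriched libraries 36.3 against 16.8. Slc40a1 per 1000 marker UMIs was 40.2 and 37.9 in DA and 28.6 and 20.9 in LEW of TLH, 89.2 and 99.0 against 50.7 and 59.7 in nuclei, and 27.1 against 18.2 in the immune-enriched libraries. On this scale, chosen after the data were seen, both genes were higher in DA on each platform. In TLH and the immune-enriched libraries, where the marker sum was lower in DA, so were Ftl1 (468 and 463 against 346 and 295 in TLH), Fth1 and Blvrb, and Slc40a1 in CPM overlapped between the strains of TLH. In nuclei Ftl1 was lower in DA, at 272 and 199 against 388 and 383.

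**Figure D2:**
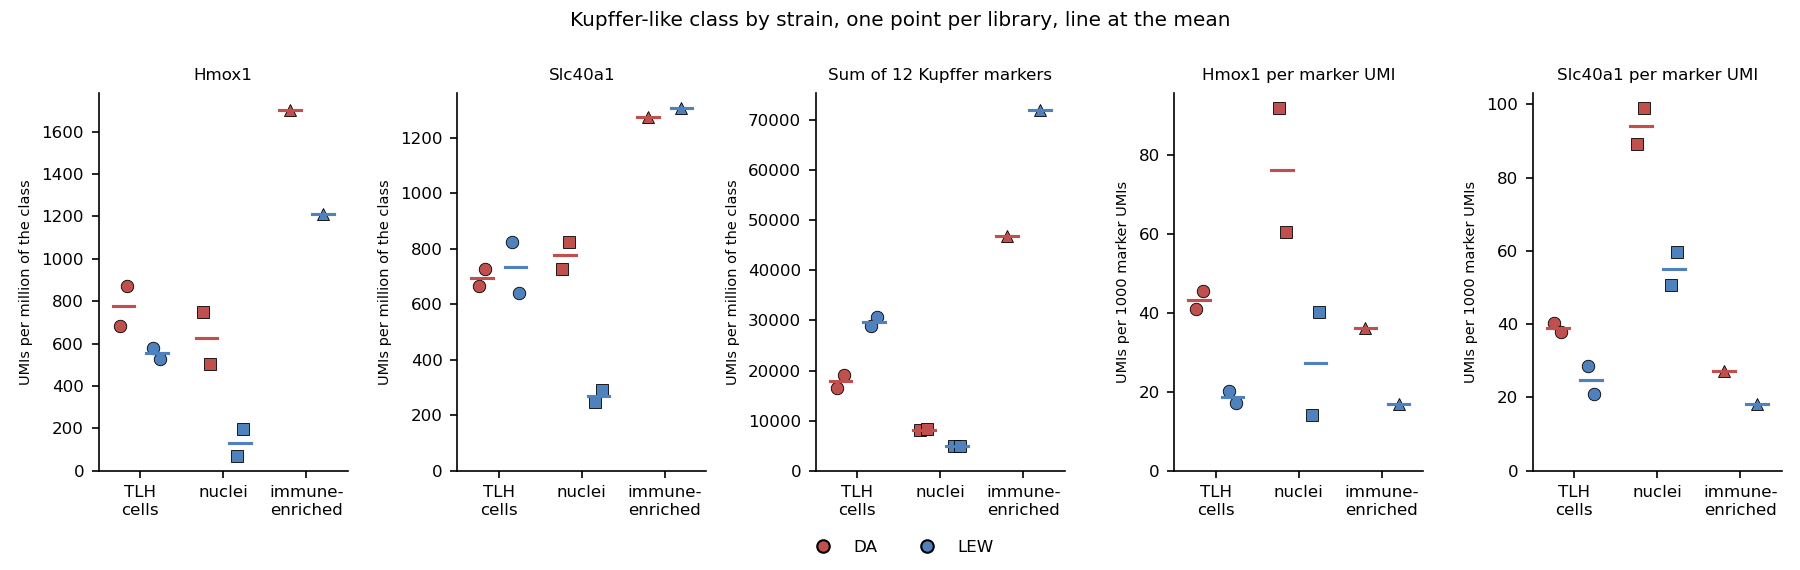
Hmox1 and Slc40a1 in Kupffer-like cells by platform and strain, in CPM, beside the summed level of 12 Kupffer markers and both genes per 1000 marker UMIs; each point is 1 library and each line a mean. The marker sum is higher in LEW in TLH and higher in DA in nuclei, and the 2 genes per 1000 marker UMIs are higher in DA on each platform, as Ftl1, Fth1 and Blvrb also were in TLH and the immune-enriched libraries.

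Whether the strain difference itself differed between platforms was tested as an interaction, nuclei minus TLH, in a fit that takes all 8 libraries as separate rats although DA files of both platforms carried the same animal numbers. In Kupffer-like cells 1 of the 9 members passed, Slc40a1 at 1.51 (SE 0.32, edgeR adjusted p = 0.0188), where 1.82% of all genes did. Its TLH levels in DA and LEW overlapped and its nuclei levels did not. The Hmox1 interaction was 1.65 (SE 0.50, edgeR adjusted p = 0.119), and it passed with DESeq2 (1.68, adjusted p = 0.0417) and without the filter on low counts (1.58, edgeR adjusted p = 0.0011). At an unadjusted p under 0.05 edgeR gave 3 members (Hmox1, Slc40a1 and Tf), against 14.8% of all genes. Of the 12 Kupffer markers 7 passed in the same direction (median 1.44), and their part in the Slc40a1 value was not tested. The Slc40a1 call was lost under stricter cell limits, with a lower UMI limit for the LEW rats and with the estimated free RNA taken off. In hepatocyte-like and endothelial-like cells 0 members passed, by edgeR or by DESeq2, where 0.00865% and 0.065% of all genes did by edgeR, and 1 (Hmox1, -1.87) and 0 had an unadjusted p under 0.05, as had 4.44% and 10.5% of all genes.

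Nuclei of hepatocyte-like and endothelial-like cells gave 0 members past the threshold, with 1.68% and 0.68% of all genes past it, and DESeq2 called 1 and 0. At an unadjusted p under 0.05 edgeR gave Hmox1, Tfrc and Alas1 in hepatocyte-like and Hpx and Alas1 in endothelial-like nuclei, where 10.6% and 11.6% of all genes met that limit. Hmox1 in hepatocyte-like nuclei was 9.2 and 9.2 CPM in DA and 9.9 and 36.8 CPM in LEW, a log2 difference of -1.28 (SE 0.52, edgeR adjusted p = 0.409) that was -0.22 without the second LEW rat. The direction there was opposite to that in Kupffer-like nuclei, and it rested on 1 library. Alas1 was 1.74 higher in DA (SE 0.54, edgeR adjusted p = 0.187), and 0.52 higher without the first DA rat.

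**Figure D3:**
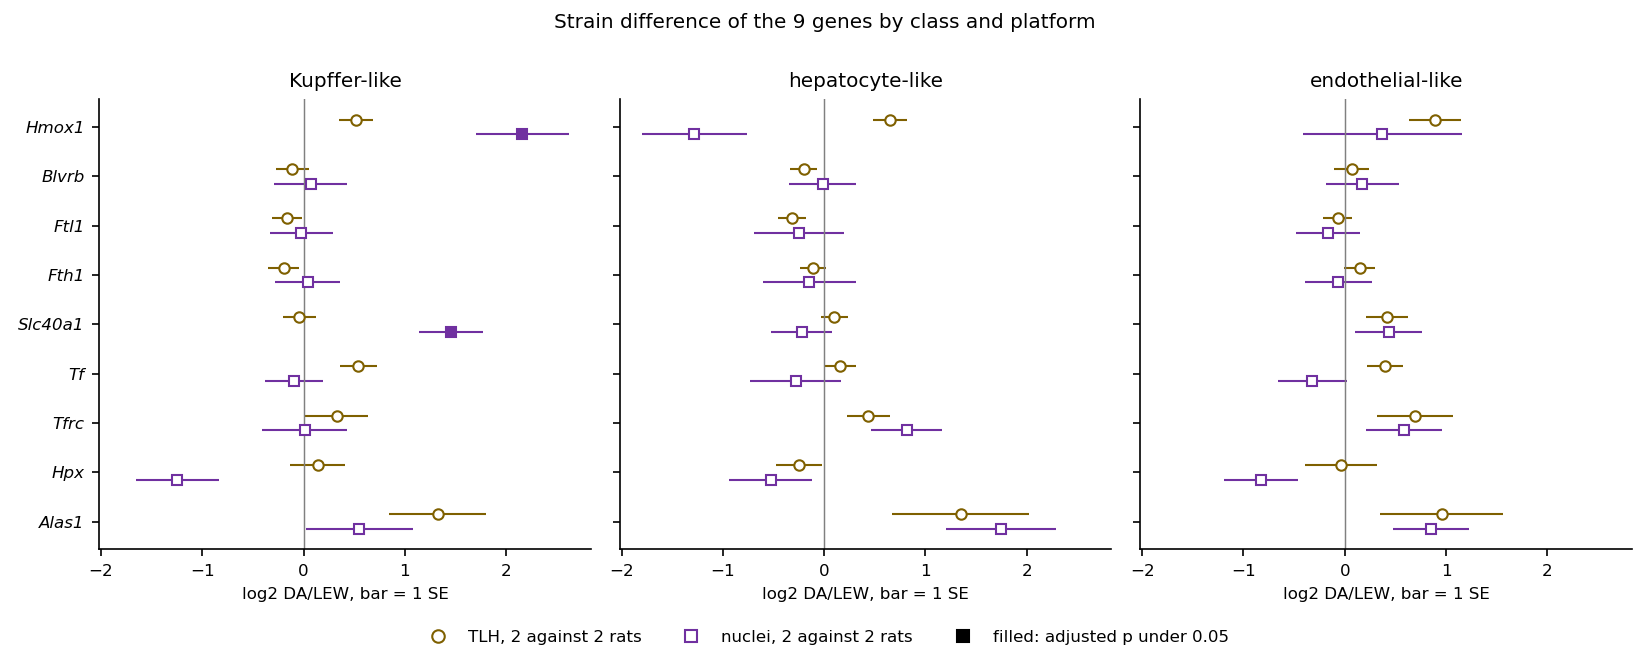
Log2 difference between DA and LEW, with bars of 1 SE, for the 9 members in Kupffer-like, hepatocyte-like and endothelial-like cells; circles are TLH, squares are nuclei, and filled symbols passed an adjusted p of 0.05. Only the nuclei Kupffer-like values of Hmox1 (2.16) and Slc40a1 (1.46) are filled.

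The immune-enriched libraries allow no test, since each strain has 1. In Kupffer-like cells the exact Poisson 95% intervals of the strains, which cover counting error only, did not overlap for 4 of the 9 members, against 10.3% of all genes of at least 10 UMIs. Hmox1 was 1701 CPM in DA (1617 to 1788) and 1213 CPM in LEW (1159 to 1269), 1.40-fold higher in DA. Fth1 was 0.775-fold, Tf 0.480-fold and Hpx 0.0653-fold the LEW level. Alb, at 363 CPM in DA and 3083 CPM in LEW, differed the same way as Tf and Hpx. Slc40a1, with 1273 and 1308 CPM, had overlapping intervals.

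A wider list of 55 genes of heme and iron handling, the members included, was read for the rest of the pathway, and 53 of them were in the gene list. It too was chosen with earlier results of these data known. In TLH Kupffer-like cells 43 were tested, 3 passed with DA higher and 2 with LEW higher, and their median log2 difference was 0.13 against 0.00 over all genes, of which 6.43% passed. Hepcidin (Hamp) was 0.78 higher in DA (edgeR adjusted p = 0.0106). The plasma ferroxidase Cp was 0.70 higher (edgeR adjusted p = 0.0202). Tmprss6, a protease that restrains hepcidin, was 1.04 higher (edgeR adjusted p = 0.0110). All 3 are made by hepatocytes, and the estimated free RNA in these cells was 68.9% and 68.3% in DA and 54.8% and 56.1% in LEW. With that RNA taken off, Hamp was -0.25, and Cp and Tmprss6 no longer passed the filter on low counts. The subtraction lowers hepatocyte genes by construction, so it cannot tell where these UMIs came from. Over all genes it left 11 past the threshold in these cells, against 446 in the main fit. The part of free RNA in the 3 differences was not tested. Blvra, the main biliverdin reductase, differed by -0.76 (edgeR adjusted p = 0.0127), higher in LEW. Abcb10, a mitochondrial transporter that supports heme synthesis, differed by -1.93 (edgeR adjusted p = 0.0289), also higher in LEW. With the free RNA off these were -0.39 and -2.60 and missed the threshold (edgeR adjusted p = 0.630 and 0.663). Under the alternatives Hamp passed in 10 of 14, Tmprss6 in 11 of 13, Blvra in 11 of 14, Cp in 7 of 13 and Abcb10 in 7 of 14.

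By role, iron storage (4 of 5 tested) and iron uptake (7 of 8) had no gene past the threshold in TLH Kupffer-like cells. Heme synthesis had 1 of 10 tested (Abcb10), heme capture and breakdown 1 of 10 (Blvra), export and plasma oxidation 1 of 2 (Cp), and sensing and hepcidin control 2 of 8 (Hamp and Tmprss6). In the other classes of TLH edgeR gave 0 of 48 in hepatocyte-like cells (0 by DESeq2), against 4.04% of all genes, with 10 at an unadjusted p under 0.05 against 21%, and 1 of 41 in endothelial-like cells (Hamp, 0.61, edgeR adjusted p = 0.0363, 0 by DESeq2), against 3.76%. That Hamp call held in 6 of 13 alternatives and was lost with the free RNA off (0.39, edgeR adjusted p = 0.913), under stricter cell limits, and without the first DA, the first LEW or the second LEW rat (0.49, 0.50 and 0.72). In nuclei it gave 2 of 33 in Kupffer-like cells (Hmox1 and Slc40a1), against 1.39% of all genes, 0 of 48 in hepatocyte-like cells (2 by DESeq2), against 1.68%, with 7 unadjusted against 10.6%, and 0 of 35 in endothelial-like cells (0 by DESeq2), against 0.68%, with 4 unadjusted against 11.6%. The interaction in Kupffer-like cells gave 2 of 47, against 1.82% of all genes, Slc40a1 and the phagosomal iron transporter Slc11a1 (1.62, SE 0.35, edgeR adjusted p = 0.0209). Of the 11 genes of heme capture and breakdown with at least 10 CPM in either class, 8 (Hmox1, Hmox2, Blvra, Blvrb, Cd163, Lrp1, Slc48a1 and Flvcr2) were higher in Kupffer-like than in hepatocyte-like cells of the immune-enriched libraries without overlap, as were 65.4% of all genes. Kupffer-like cells there held Cd163 at 632 and 824 CPM, Blvra at 589 and 596 CPM and the heme transporter Slc48a1 at 248 and 282 CPM in DA and LEW.

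Zonation, the gradient of hepatocyte function from the portal vein to the central vein, was read by ranking hepatocyte-like nuclei, and Visium spots, on zone genes and cutting each library into 3 equal parts, pericentral, middle and periportal. In nuclei Tfrc was the 1 member higher in the periportal part in 4 of 4 rats, where 46.4% of all genes were. It went from 64.4 to 188.5 and 90.5 to 177.1 CPM in DA and from 65.1 to 119.3 and 39.2 to 60.9 CPM in LEW, log2 differences of 1.55, 0.97, 0.87 and 0.64. Tf, Hpx, Ftl1 and Fth1 were lower in the periportal part in 4 of 4 rats, as were 22.4% of all genes. With the study's own zone genes, Tf and Orm1 left out, the direction was shared by Tfrc and Hpx alone. The study names Tf among the periportal genes of its Visium zonation components. For Tf the differences were -1.19 and -1.02 in DA and -0.07 and -0.36 in LEW, beside -0.84, -0.63, 0.08 and -0.36 for Alb. The periportal part of nuclei was deeper in every rat, with a median of 2460 UMIs against 1372.5 in the pericentral part of the first DA rat. Hmox1 had no shared direction, and its 1.82 in the second LEW rat stood for 14.3 against 50.4 CPM.

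On Visium the 2 sections gave the same order for most members. Hmox1 was higher in the periportal part, at 24.5 against 15.7 CPM in section A and 28.8 against 17.1 CPM in section B (log2 0.64 and 0.75). Slc40a1 followed at 46.1 against 34.3 and 58.2 against 37.1 CPM (0.43 and 0.65), and Tfrc at 34.9 against 27.8 and 36.3 against 29.6 CPM (0.33 and 0.29). Spots hold several cell types, and Kupffer markers were higher in the same part, by 1.75 and 2.23 for Marco, 1.12 and 1.16 for Cd5l and 0.76 and 0.78 for Clec4f, so Hmox1 per spot and Kupffer cells per spot cannot be told apart. Tf (0.13 and 0.14), Fth1 (0.21 and 0.20) and Hpx (0.03 and 0.06) differed by less than Alb (0.25 and 0.28). Alas1 (-0.17 and -0.19) and Blvrb (-0.24 and -0.21) were higher in the pericentral part. So 6 members were higher periportally in both sections, where 30.2% of all genes were, and 2 pericentrally, where 35.6% were. Hepcidin (Hamp, 0.58 and 0.69) was also periportal, and the heme synthesis enzymes Fech (-0.25 and -0.25) and Urod (-0.27 and -0.23) pericentral. Tfrc was the 1 member with the same direction, periportal, in all 4 nuclei libraries and both sections. Of all genes 46.4% were periportal in every nuclei library and 30.2% in both sections, and the share that met both was not counted.

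**Figure D4:**
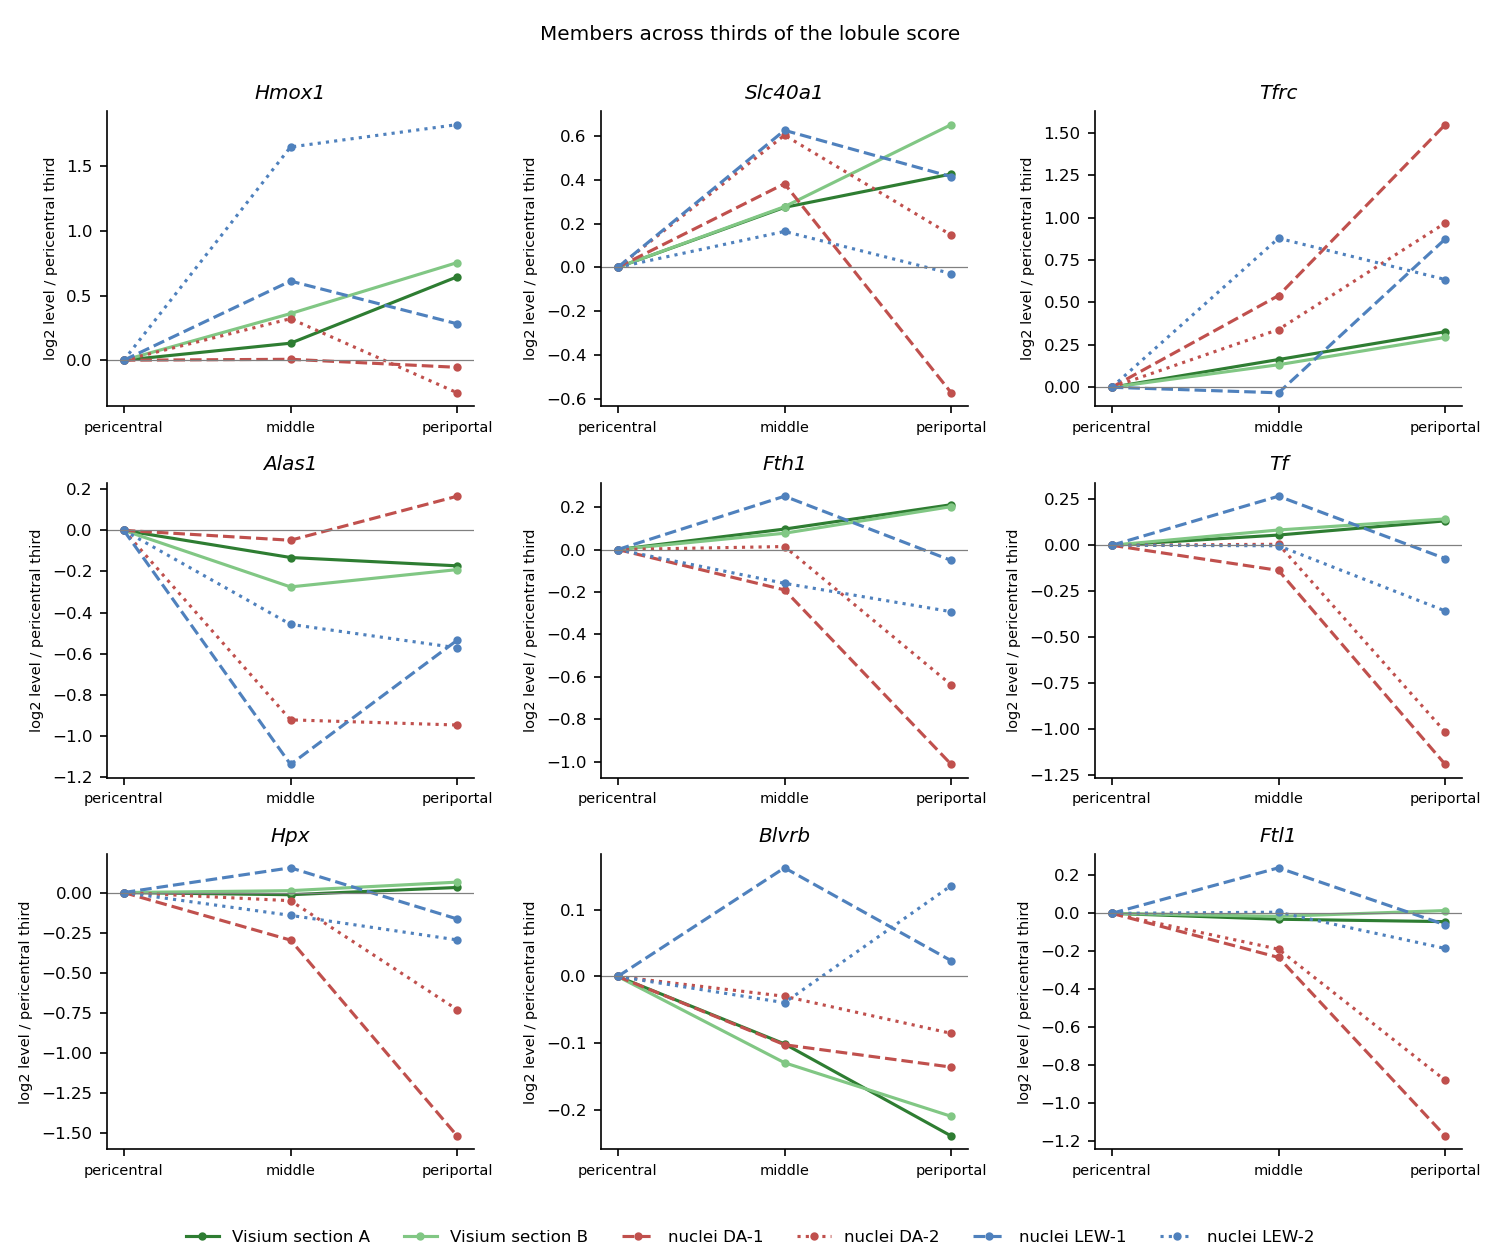
Log2 level of the 9 members in each of the 3 parts of the zone ranking relative to the pericentral part; green lines are the 2 Visium sections, and the other lines are hepatocyte-like nuclei of the 4 rats. Tfrc lies above 0 in the periportal part in every line, while Tf and Hpx lie below 0 in the 4 nuclei libraries and above 0 in the 2 sections.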

How the data were processed

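The authors deposited counts of UMIs, not normalized, for every gene in every barcode or spot, made with Cell Ranger 3.1.0 for cells and nuclei and Space Ranger 1.1.0 for sections, per the submitters' processing notes. TLH and immune-enriched files carry no gene names, so rows were named by the order of the 32883-gene nuclei list. The members and lists were chosen with earlier results of these data known. Cells passed limits of 1000 to 2000 UMIs and 10% to 50% mitochondrial UMIs by library. In TLH the mitochondrial limit was 30% and 20% in the DA rats and 40% in both LEW rats, so it differed between the strains. The UMI limit was 1500 in the first DA rat and 2000 in the other TLH rats. The stricter cell limits were 2500 UMIs and 20% in each TLH library. For LEW TLH libraries 2000 UMIs was used in place of the study's 1500, which would keep 12124 and 7857 cells. Cells were normalized with sctransform 0.4.2 (Seurat 5.3.0) without the members or the wider list. They were clustered on 15 principal components corrected for library by the Harmony method. Neighbours from the same library then made up 35.7% in TLH, 39.0% in nuclei and 73.9% in the immune-enriched map. Random mixing would give 26.2%, 28.9% and 57.8%, so mixing was incomplete. A cluster was named where at least 3 fixed markers were among its leading genes. Scrublet calls (1 to 21 per library) were kept, and an alternative left out the top 6% of scores (70 to 427 cells per library). Nuclei libraries shared 8 to 24 barcodes pairwise. Counts were summed per rat and class, and strains compared with edgeR 4.0.16 (quasi-likelihood, TMM, R 4.3.3, Benjamini-Hochberg adjustment over all genes tested, threshold 0.05) after its filter on low counts. The SE is the log2 difference divided by the root of F. Intervals are 1.96 SE, a normal approximation that is narrower than the F test itself would give. The fits were tested on simulated counts. DESeq2 1.42.0, other filters, blocks and free-RNA removal were alternatives. The genes named were the 9 members, genes of the wider list past the threshold and the 5 genes most like Hmox1, Slc40a1 and Tfrc, of which 1 is not reported here. Other genes, among them markers and pathway genes whose levels are given, were added after their values were seen. The 3 zone parts came from ranking on fixed zone genes. Upstream windows and gene order came from RefSeq tables on assembly GRCr8.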

Additional observations from a re-analysis of the deposited data

Results flagged for a closer look

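The strain difference of 2 genes in Kupffer-like cells differed between platforms by the interaction test, and its cause was not tested. Slc40a1 was higher in DA in nuclei and overlapped between strains in TLH, an interaction of 1.51 on the log2 scale (SE 0.32, edgeR adjusted p = 0.0188). It passed in 6 of 9 alternatives, with values of 1.20 to 1.54. Slc11a1, the phagosomal iron transporter of macrophages, gave 1.62 (SE 0.35, edgeR adjusted p = 0.0209) and passed in 6 of 9, with 1.23 to 1.66. Both calls were lost under stricter cell limits, with the 1500-UMI limit for LEW and with the estimated free RNA taken off. The sum of 12 Kupffer markers was lower in DA than in LEW in TLH and higher in nuclei, and 7 of the 12 passed the same test. Estimated free RNA in TLH Kupffer-like cells was higher in DA, and its part in these marker levels was not tested. No group held 4 samples, so no single sample could be tested against its group.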

How the results depend on the processing

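Counts of genes past the threshold are given for Kupffer-like, hepatocyte-like and endothelial-like cells in that order. They were 446, 398 and 277 in TLH, 66, 176 and 38 in nuclei and 158, 1 and 5 for the interaction. Without the filter on low counts they were 790, 1112 and 489, then 224, 505 and 169, then 334, 30 and 65. DESeq2 gave 181 and 122 in TLH Kupffer-like and endothelial-like cells and 12 and 13 for the hepatocyte-like and endothelial-like interactions. The stricter cell filter gave 104 in TLH endothelial-like cells, 11, 79 and 7 in nuclei, and 0 (593 at an unadjusted p under 0.05 in edgeR), 6 and 1 for the interaction. The 1500-UMI limit for LEW gave 257 in TLH Kupffer-like cells and 32, 0 (603 at an unadjusted p under 0.05 in edgeR) and 10 for the interaction. With the free RNA taken off, which was not run for hepatocyte-like cells, edgeR gave 11 and 0 (244 at an unadjusted p under 0.05) in TLH, 4 and 7 in nuclei and 1 and 1 for the interaction. Leaving out the top Scrublet scores gave 98 for the Kupffer-like interaction, and clustering on all genes gave 3 for the endothelial-like one. Leaving out 1 rat gave 211 to 730, 106 to 310 and 47 to 539 in TLH, and 68 to 225, 104 to 288 and 64 to 203 in nuclei.

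Deviations of same-numbered rats had weak correlations, of -0.11, -0.15 and -0.093 in TLH and 0.044, 0.089 and 0.042 in nuclei. The numbers were therefore not used to pair rats in the main fits. The replicate block gave 216 in TLH hepatocyte-like cells, 576 and 221 in nuclei hepatocyte-like and endothelial-like cells and 101, 2 and 2 for the interaction. The crossed pairing, added after seeing the data, gave 593 and 1098 genes in TLH Kupffer-like and hepatocyte-like cells.

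Members past the threshold numbered 0 in the 3 TLH classes, 2, 0 and 0 in nuclei and 1, 0 and 0 for the interaction. In TLH Kupffer-like cells there were 3 without the filter and 1 each with DESeq2, the crossed pairing, the stricter filter, the Scrublet setting and the 1500-UMI limit, and 0 to 4 with 1 rat left out. In TLH hepatocyte-like cells there was 1 without the filter, with the stricter filter and with the 1500-UMI limit, 2 with the crossed pairing and 0 to 1 with 1 rat left out. In TLH endothelial-like cells there were 2 without the filter and 0 to 3 with 1 rat left out. In nuclei Kupffer-like cells there were 0 with the replicate block (Hmox1 at 2.24, edgeR adjusted p = 0.0943, and Slc40a1 at 1.46, 0.0518), the stricter filter and the free RNA off. There was 1 with the Scrublet setting and with all genes in the clustering. Without the filter on low counts Hpx passed there too, higher in LEW (-1.31, edgeR adjusted p = 0.00375). In nuclei hepatocyte-like cells DESeq2 gave 1, no filter and the replicate block 2 each (Hmox1 at -1.11 and Alas1 at 1.47 under the block), and 1 rat left out 0 to 1, as in endothelial-like nuclei. The Kupffer-like interaction gave 2 with DESeq2, 3 without the filter and 0 with the stricter filter, the 1500-UMI limit and the free RNA off, and the hepatocyte-like one 1 without the filter.

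Hmox1 in nuclei Kupffer-like cells was called in 8 of 12 alternatives (1.55 to 3.08, edgeR or DESeq2 adjusted p of 7.02e-07 to 0.241) and Slc40a1 in 6 of 12 (1.18 to 1.57, 0.00417 to 0.272). Hmox1 in TLH was higher in DA in every alternative run, with 0.33 to 0.91, 0.51 to 0.89 and 0.39 to 1.03 in the 3 classes. Of 1084 alternative values for single genes, 2 called values changed sign. Hamp in TLH Kupffer-like cells was -0.25 with the free RNA off, and LOC100360087 in TLH endothelial-like cells ranged from -1.96 without the first DA rat to 1.05 without the second, against 0.18 with all rats. Members with 1 direction in all nuclei libraries went from 5 to 2 (Tfrc and Hpx) with the study's zone genes other than Tf and Orm1. The cause of these changes was not tested. Nuclei Kupffer-like values rest on 60 to 91 nuclei and as few as 23 UMIs of Hmox1, which limits their precision.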

Other observations

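The hemoglobin genes Hba-a3 and Hbb were higher in the pericentral part of the Visium sections. Periportal over pericentral, the log2 differences in sections A and B were -0.80 and -1.11 for Hba-a3 and -0.39 and -0.77 for Hbb. These genes held a small part of the hemoglobin UMIs, and the zone levels of the others, Hba-a2 among them, were not read. The direction of Hba-a3 and Hbb was opposite to that of Hmox1 and of the Kupffer markers in the same spots. In the erythroid-like cells of the immune-enriched libraries, Ncoa4, which delivers ferritin for breakdown, was at 131 to 181 CPM and Urod, an enzyme of heme synthesis, at 23 to 45 CPM. These genes were chosen after their values were seen.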
